A study of Homo sapiens with 12 samples.

Results

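RAB26, SBF2, OPLAH, ABTB1, CLYBL and LAMB2P1 were among the transcripts that fell furthest when a miR-130b mimic was given to TC71, an established cell line of Ewing sarcoma. They were chosen by gene symbol for their falls in mimic against scramble arrays, so every value of that comparison is given below as a description and none of it as a test. All 6 genes were on the array and measured, out of 11835 genes tested, and they were read by 10 of the 47322 probes. The groups were cells with the miR-130b mimic, cells with a miR-130b anti-miR and cells with a scrambled control, each after 48 h and each on 4 Illumina BeadChip arrays numbered 1 to 4, 12 arrays in all. All 3 groups are 1 cell line, and nothing in the labels tells separate cultures from repeats of 1 culture, so p-values measure the spread between these samples, which may be technical. The columns of the anti-miR group carry a code that the labels do not explain, so the kind of inhibitor is not stated here.

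MicroRNAs guide Argonaute proteins to messenger RNAs that hold a match to the seed, a short stretch near the 5′ end of the microRNA, and a match usually lowers the amount or the translation of the message. A mimic adds such a small RNA to the cell, and an inhibitor is meant to block the cell's own copies. miR-130b belongs to a family with a common seed. The study names ARHGAP1, a GTPase-activating protein, as the target of miR-130b that it is about. The 6 fallers have varied roles, though RAB26 and SBF2 both have to do with Rab proteins. RAB26 is a small GTPase of secretory vesicles, and SBF2 a myotubularin-family pseudophosphatase that also activates Rab proteins. OPLAH is the enzyme that turns oxoproline into glutamate in glutathione turnover, and ABTB1 a protein with ankyrin repeats and BTB domains. CLYBL is a mitochondrial citramalyl-CoA lyase linked to vitamin B12, and LAMB2P1 a transcribed pseudogene of the laminin beta 2 gene.

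The sequences that define the comparison are those of the microRNA, from RefSeq on GRCh38.p14, with the seed (bases 2 to 8) in capitals. In the table of mature microRNAs used, 6 names shared the seed of hsa-miR-130b-3p, and they are shown because the mimic adds copies of a seed that the cell may also read from the others. The name hsa-miR-130a-3p is not among them, which is not given as a difference in its seed. That table may lack members of the family, so the 6 are not given as the whole of it. The labels do not name the arm that the mimic carries.
hsa-miR-130b-3p: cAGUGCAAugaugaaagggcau
hsa-miR-301b-3p: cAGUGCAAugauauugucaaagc
hsa-miR-301a-3p: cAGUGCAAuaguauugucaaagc
hsa-miR-454-3p: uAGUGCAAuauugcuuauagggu
hsa-miR-3666: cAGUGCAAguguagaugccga
hsa-miR-4295: cAGUGCAAuguuuuccuu

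hsa-miR-130b-3p lies at chr22:21653354-21653375 on the plus strand, in the MIR130B hairpin, and hsa-miR-301b-3p lies close by at chr22:21653025-21653047 on the same strand. Counted base by base from the 5′ end, hsa-miR-301b-3p shared 13 of the 22 bases of hsa-miR-130b-3p, hsa-miR-3666 12, hsa-miR-301a-3p and hsa-miR-4295 11 each, and hsa-miR-454-3p 10. The reverse complement of the seed is UUGCACU, the letters a perfect seed site in a message would hold. The other arm of the hairpin, printed here with those letters in capitals, contains them because the arms pair.
hsa-miR-130b-5p: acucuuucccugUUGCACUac
The transcript sequences of the 6 genes were not used here, so whether they hold the site is not reported.

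Levels below are mean signal intensities as deposited, and differences are on the log2 scale after background correction and quantile normalization, ± limma's standard error with 4 arrays per group. A probe counts as detected on an array when its detection p-value is under 0.05. Over all genes, 16.2% changed between mimic and scramble at limma's adjusted p under 0.05 (1918 of 11835, 881 higher and 1037 lower), and 10.6% were lower with no overlap between mimic and scramble arrays. With arrays scaled to a common median 1444 were called, 500 higher and 944 lower. The count fell by over 1.5 times without scramble array 1 (1108), mimic array 3 (1210) or mimic array 4 (1179). Between anti-miR and scramble 22 genes changed, or 0.186%, 11 in each direction, a count that was 0 to 32 with 1 array left out, 0 under median scaling and 99 with array weights. Median raw intensity was 84.5 to 87.6 on mimic arrays, 72 to 82.5 on anti-miR arrays and 85.5 to 88.8 on scramble arrays. Of 10 Ewing sarcoma markers 9 were on the array and all 9, CD99 and NKX2-2 among them, were detected on all 12 arrays. Between mimic and scramble, CCND1 among them rose by 0.39 (limma's adjusted p = 0.0179) and BCL11B fell by 0.29 (adjusted p = 0.042). Defining markers of blood, epithelial and endothelial cells (PTPRC, CD3E, HBB, CDH1, KRT5, KRT14, KRT20, PECAM1, VWF, CDH5, TEK and KDR) were detected on 0 arrays, while EPCAM was detected on 10, CD14 on 9 and HBA1 on 12. Of the fibroblast markers COL3A1 and DCN were detected on 12 arrays, LUM on 7, COL1A2 on 3 and PDGFRA on 0. None of these other-cell markers that was tested passed the threshold between mimic and scramble.

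RAB26 had the largest fall of all genes tested. Its probe read 132, 157.5, 113.2 and 121.4 on the mimic arrays, 255.4, 288.8, 208.5 and 235.5 on the anti-miR arrays, and 453.3, 314, 298 and 243.6 on the scramble arrays. Every mimic array was below every other array, and the anti-miR arrays overlapped the scramble arrays. In log2 units RAB26 averaged 6.17 ± 0.31 on mimic, 7.71 ± 0.17 on anti-miR and 7.91 ± 0.31 on scramble arrays (SD, n = 4 each). The mimic level was 3.32-fold lower than the scramble level (-1.73 ± 0.16), and the probe was detected on all 12 arrays. In bulk RNA, fewer cells with a transcript and less of it per cell cannot be told apart, and this holds for each gene here. RAB26 has 1 probe on the array, so its fall was read by 1 sequence only.

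SBF2 was second. Its brighter probe read 130.3, 152.7, 113.1 and 107.1 on the mimic arrays, 186.7, 233.4, 185.1 and 206.7 on the anti-miR arrays, and 287.9, 251.6, 248.1 and 198.3 on the scramble arrays. The mimic arrays lay below all others, and the remaining groups overlapped. Normalized, SBF2 was 2.59-fold lower under the mimic than in scramble (-1.37 ± 0.16), with means of 6.06 ± 0.37 on mimic, 7.34 ± 0.19 on anti-miR and 7.43 ± 0.19 log2 units on scramble arrays (SD, n = 4 each). The dimmer probe of the same gene read 90.4, 86, 79.2 and 89.2 on the mimic arrays, 87.5, 93, 93.4 and 70.4 on the anti-miR arrays and 111.2, 105.6, 92.2 and 103 on the scramble arrays. It was detected on 0 mimic, 2 anti-miR and 3 scramble arrays, so it read close to background in each group. It pointed the same way with a difference of -0.43. No bound on its size is given, since it was not detected on every scramble array. With the mean of both probes the SBF2 difference was -0.90 in place of -1.37.

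OPLAH was the only one of the 6 whose anti-miR arrays also lay wholly below the scramble arrays. Its signal was 422.1, 570.2, 399.3 and 455.3 on mimic, 642, 677.3, 542.1 and 620.1 on anti-miR, and 1418.7, 1137.8, 921.9 and 754.8 on scramble arrays. After normalization no 2 groups overlapped, with mimic lowest at 8.62 ± 0.21, anti-miR at 9.27 ± 0.11 and scramble at 9.83 ± 0.29 log2 units (SD, n = 4 each). The mimic level was 2.30-fold lower than scramble (-1.20 ± 0.14). OPLAH also has a single probe, detected on all 12 arrays.

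ABTB1 dropped out of detection under the mimic. Its 1 probe read 82.3, 85.2, 78.8 and 74.7 on the mimic arrays, detected on 0 of 4, against 117.8, 140.1, 93.3 and 107.8 on the anti-miR arrays and 197, 130.6, 122.1 and 102.3 on the scramble arrays, detected on 4 of 4 in both. The scramble arrays were far apart, with array 1 highest, and they overlapped the anti-miR arrays. As fitted, the difference was -1.28 ± 0.22. Since the mimic arrays were not above background, only a bound holds for its size: ABTB1 was at least 1.85-fold lower under the mimic than in scramble, from the lowest detected signal on each mimic array. The measured means were 4.79 ± 0.09 on mimic, 6.03 ± 0.35 on anti-miR and 6.07 ± 0.55 log2 units on scramble arrays (SD, n = 4 each).

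CLYBL was the only faller with a pair of probes detected on all 12 arrays. The brighter read 246, 360.9, 267.1 and 268.4 on the mimic arrays, 400.5, 495.5, 333.1 and 337.2 on the anti-miR arrays, and 739.2, 540.6, 514.4 and 476.2 on the scramble arrays. The next read 266, 339.1, 230.9 and 254.1 on the mimic arrays, 396.4, 475, 348.1 and 329.8 on the anti-miR arrays, and 637, 456, 433.3 and 428.3 on the scramble arrays. On both probes the normalized mimic arrays lay below all anti-miR and all scramble arrays. Their differences between mimic and scramble were close, -1.06 ± 0.13 for the brighter and -0.90 for the next. The brighter probe averaged 7.80 ± 0.24 on mimic, 8.50 ± 0.23 on anti-miR and 8.86 ± 0.14 log2 units on scramble arrays (SD, n = 4 each), a level 2.09-fold lower under the mimic than in scramble. The third CLYBL probe, assigned to a non-coding transcript record of the gene, was detected on 0 arrays and differed by -0.10, with all groups overlapping.

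LAMB2P1 was near the detection limit. Its brighter probe read 86.5, 91.9, 79.2 and 97.2 on the mimic arrays, 108.6, 141.4, 90.3 and 80.9 on the anti-miR arrays, and 180.3, 126.8, 128.9 and 110.7 on the scramble arrays. It was detected on 1 of 4 mimic arrays and on all 8 others, and mimic overlapped anti-miR but not scramble. The normalized difference between mimic and scramble was -1.07 ± 0.22, with means of 5.04 ± 0.24 on mimic, 5.75 ± 0.51 on anti-miR and 6.11 ± 0.36 log2 units on scramble arrays (SD, n = 4 each). The second probe, designed from an expressed sequence tag, was detected on 0 arrays and read 0.09. LAMB2P1 is annotated as a transcribed pseudogene beside its parent gene LAMB2, with 1 annotated gene between them. Which of the 2 transcripts each probe binds was not tested, since no probe sequences were used here, so the reading of LAMB2P1 is uncertain.

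**Figure D1:**
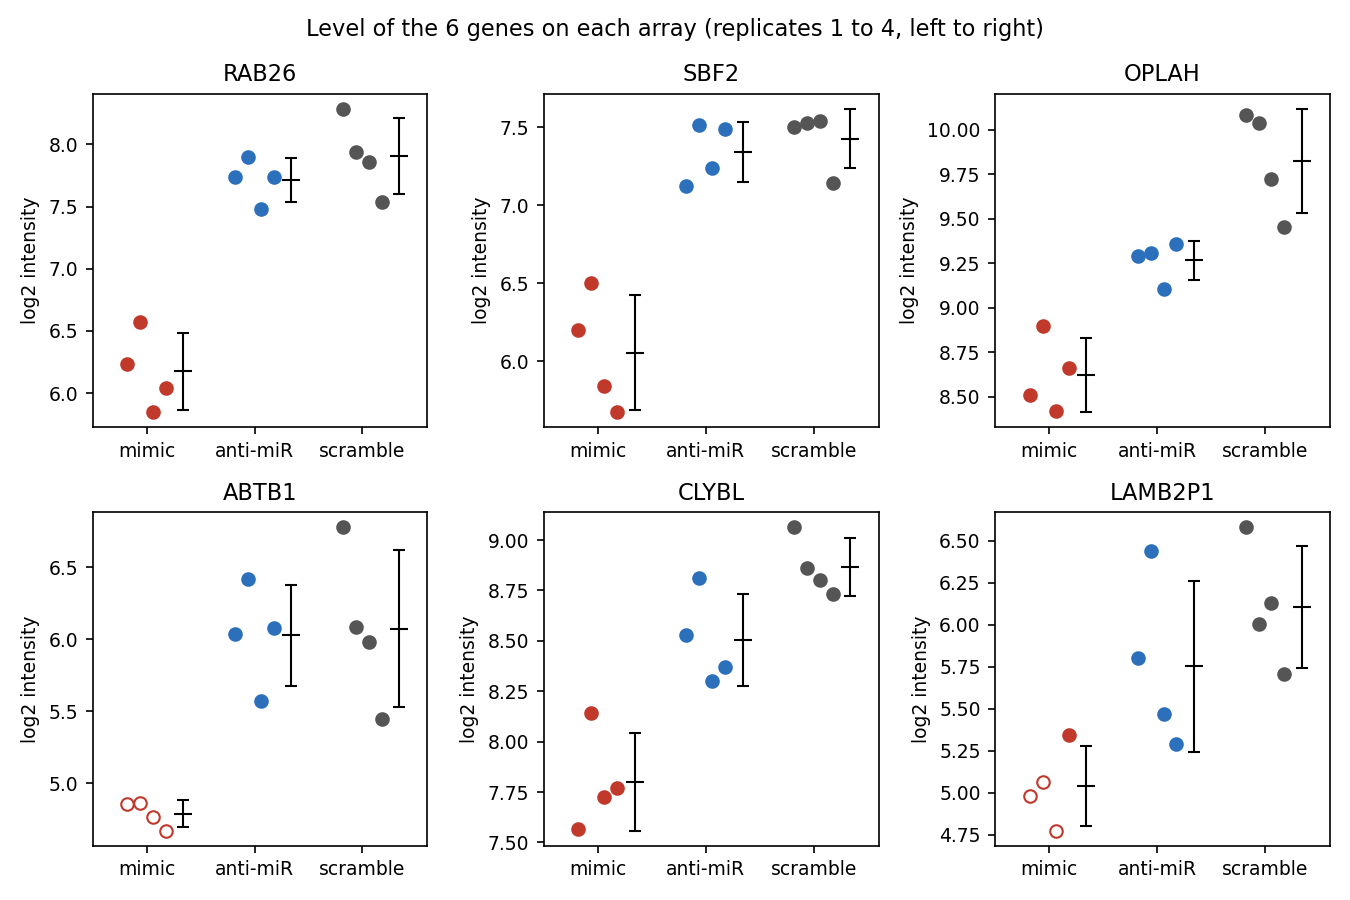
Normalized log2 intensity of each gene's brightest probe on every array, with mimic, anti-miR and scramble from left to right; filled points were detected (detection p under 0.05), open points were not, and the bar is the group mean ± SD (n = 4). Mimic points lie below all scramble points in each panel, the ABTB1 points of the mimic group are all open, and OPLAH is the panel in which the 3 groups do not overlap.

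LAMB2, which encodes the laminin beta 2 chain and was not among the genes chosen, also read lower under the mimic. Its signal was 197.5, 200.2, 172.3 and 196.3 on mimic, 267.1, 297.2, 222.1 and 225.3 on anti-miR, and 366.6, 283.3, 267.9 and 277.5 on scramble arrays. LAMB2 fell by 0.72 ± 0.10 on the log2 scale, or 1.65-fold, in mimic against scramble (limma's adjusted p = 0.00125, up to 0.00581 over 22 alternatives), and every mimic array was below every scramble array. It was detected on all 12 arrays. Whether its probe and that of LAMB2P1 read separate transcripts was not tested. The fall of LAMB2 and its p-value are therefore not given as independent of the choice of genes. CCDC71, the gene on the other side of LAMB2P1, read 0.32 ± 0.15 in the same comparison (limma's adjusted p = 0.162).

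The nearest measured genes beside the other fallers mostly did not pass the threshold. Next to RAB26, PKD1 read -0.29 (adjusted p = 0.144) and TRAF7 -0.06 (adjusted p = 0.742). Next to SBF2, SWAP70 read 0.03 and ADM 0.44, with limma's adjusted p of 0.852 and 0.0521. GRINA and EXOSC4 beside OPLAH read -0.11 and 0.18, and TM9SF2 and ZIC2 beside CLYBL read -0.01 and -0.23, none past the threshold. Beside ABTB1, PODXL2 read -0.24 (adjusted p = 0.165), while SEC61A1, a subunit of the protein channel of the endoplasmic reticulum, rose by 0.60 ± 0.13 (limma's adjusted p = 0.00979). Of the 12 neighbours LAMB2 was thus the 1 that fell, where 8.76% of all genes were called lower. Whether that reading is separate from the reading of LAMB2P1 was not tested. Between 0 and 8 annotated genes lay between a faller and its measured neighbour, and only PODXL2 and CCDC71 were adjacent.

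By size of the fitted difference, RAB26 and SBF2 held the first ranks of fall among the 11835 genes, OPLAH the sixth and CLYBL rank 11. ABTB1 and LAMB2P1 came out at 3 and 10 as fitted, but with mimic signals detected on 0 of 4 and 1 of 4 arrays their exact ranks are not settled. Of the 10 largest falls that were called, had no overlap between mimic and scramble arrays and were detected on all 4 arrays of a group, 6 were these genes and 4 were DEPTOR (-1.23), CCNG2 (-1.10), KLHL24 (-1.07) and BST2 (-1.07). CLYBL, with -1.063, was the last inside that limit, and CDK19, with -1.052, was the first outside, so the edge of the group separates values that differ by far less than their errors. The median of the 6 differences was -1.24 as fitted and -1.13 with ABTB1 at its bound, beside -0.004 over all genes, of which 0.169% fell by at least 1 log2 unit.

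None of the 6 was higher under the anti-miR. All 6 differences between anti-miR and scramble were below 0, where 53.6% of all genes were, and the median was -0.27, beside -0.02 over all genes. This comparison uses the scramble arrays that also chose the genes, so its direction is not independent of the choice. By limma 0 of the 6 were called at an adjusted p under 0.05, where 0.186% of genes were, and 2 of the 6, OPLAH and CLYBL, had an unadjusted p under 0.05, where 16.6% of genes did.

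OPLAH had the largest anti-miR difference of the 6, -0.56 ± 0.14 (limma's adjusted p = 0.107, 95% interval -0.85 to -0.26), with all 4 anti-miR arrays below all 4 scramble arrays. Arrays of these groups did not overlap in the lower direction for 5.44% of genes. Over 22 alternatives its adjusted p ran between 0.0453 and 0.266, and the lower value, without background correction, was the 1 past the threshold. CLYBL gave -0.36 ± 0.13 (limma's adjusted p = 0.213, 95% interval -0.65 to -0.07) on its brighter probe and -0.13 on the next, and the CLYBL probe detected on 0 arrays read -0.23. LAMB2P1 gave -0.35 ± 0.22 (limma's adjusted p = 0.442, 95% interval -0.83 to 0.13). It was -0.585 without anti-miR array 2, -0.201 without anti-miR array 4 and -0.196 without scramble array 1.

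RAB26, SBF2 and ABTB1 lay nearest to scramble under the anti-miR. RAB26 gave -0.19 ± 0.16 (limma's adjusted p = 0.579), with a 95% interval of -0.54 to 0.16. SBF2 gave -0.09 ± 0.16 (limma's adjusted p = 0.826), with an interval of -0.43 to 0.26, and its dimmer probe -0.18. ABTB1 gave -0.05 ± 0.22 (limma's adjusted p = 0.936), with an interval of -0.52 to 0.43. The intervals rest on the scramble arrays that chose the genes. With 1 array left out in turn, the RAB26 difference lay between -0.314 without scramble array 4 and -0.0649 without scramble array 1. That of SBF2 lay between -0.181 without scramble array 4 and -0.0131 without anti-miR array 1. ARHGAP1, the study's named target, read -0.58 ± 0.14 under the mimic (limma's adjusted p = 0.0149) and 0.19 ± 0.14 under the anti-miR (adjusted p = 0.509). Its raw signals overlapped between anti-miR and scramble arrays and averaged lower under the anti-miR, at 0.965 of the scramble mean. After normalization the difference was above 0, and every anti-miR array (8.83 to 8.97 log2 units) lay above every scramble array (8.71 to 8.75). Arrays of these groups did not overlap in the higher direction for 3.5% of genes. The anti-miR arrays had the lower raw medians given above, and the part of that in these differences was not tested.

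**Figure D2:**
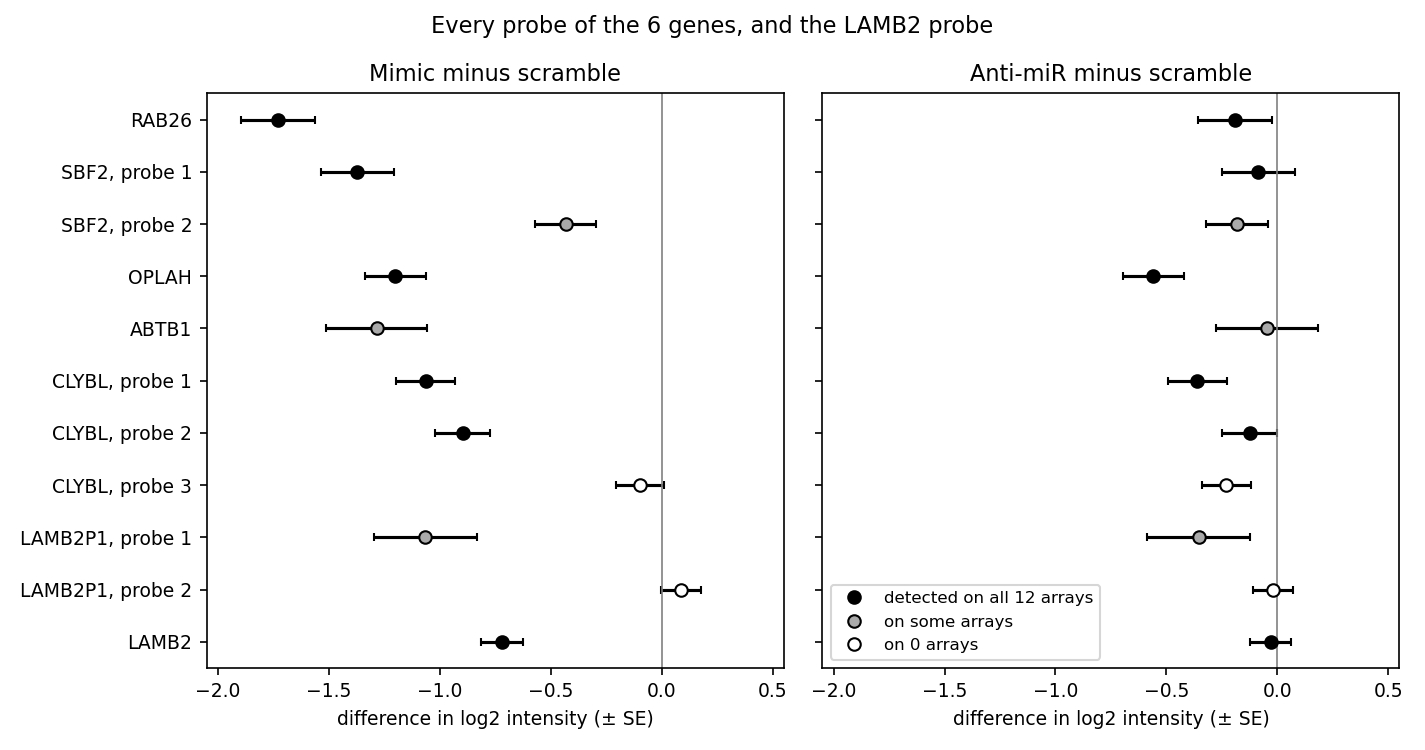
Difference in log2 intensity ± SE for all 10 probes of the 6 genes and for the LAMB2 probe, mimic minus scramble on the left and anti-miR minus scramble on the right; probes are numbered by brightness, and the fill gives the number of arrays on which a probe was detected. The differences below -0.8 on the left all come from probes detected on at least 8 arrays, probes detected on 0 arrays lie at -0.10 and 0.09 there, and no faller's probe on the right lies above 0.

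Probe agreement could be read for 3 of the 6 genes, since RAB26, OPLAH and ABTB1 have 1 probe each. Of the 4 further probes of SBF2, CLYBL and LAMB2P1, 3 were below 0 in mimic minus scramble, but 2 of the 4 were detected on 0 arrays and say nothing of the transcript. That leaves the second CLYBL probe, which read -0.90 beside -1.06 for the first, and the second SBF2 probe, which read about background. The CLYBL probes read the same arrays that chose the gene, so their agreement is a description and not separate support. Between mimic and anti-miR, which shares the mimic arrays with the choice of genes, the differences were -1.54 for RAB26, -1.29 for SBF2, -0.70 for CLYBL and -0.64 for OPLAH, and -0.71 for LAMB2P1 with 1 of 4 mimic arrays detected. No size is given for ABTB1, whose mimic arrays were all below detection.

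Single arrays moved these sizes. After normalization scramble array 1 was the highest of its group for 5 of the 6 genes, all but SBF2, and scramble array 4 was the lowest for 6 of 6. On the same scale mimic array 2 was the highest of its group for 5 of the 6, all but LAMB2P1. Without scramble array 1 the differences between mimic and scramble were -1.60 for RAB26, -1.35 for SBF2, -1.12 for OPLAH, -1.05 as fitted for ABTB1, -0.996 for CLYBL and -0.91 for LAMB2P1. The ABTB1 difference between anti-miR and scramble changed sign without scramble array 1, to 0.19, and without anti-miR array 3, to 0.11. Scramble array 1 had the highest raw median of its group, 88.8, and the part of that in these values was not tested.

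LAMB2P1 and ABTB1, which were not detected on every array, shrank most when background was treated otherwise. Without background correction the difference between mimic and scramble was -0.54 for LAMB2P1 and -0.67 for ABTB1, but -1.20 for RAB26, -0.89 for SBF2, and still -0.90 for CLYBL and -1.10 for OPLAH. The lowest rank of fall of any of the 6 genes was then 134, in place of 11, and with a normexp offset of 50 it was 73. With 1 array left out in turn that rank was between 10 and 28. All 6 differences between mimic and scramble stayed below 0 in 22 of 22 alternatives. The genes were chosen for their falls on these same arrays, so the kept sign is a description and no support for the falls. In the fit as reported, 50.8% of all genes were below 0.

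**Figure D3:**
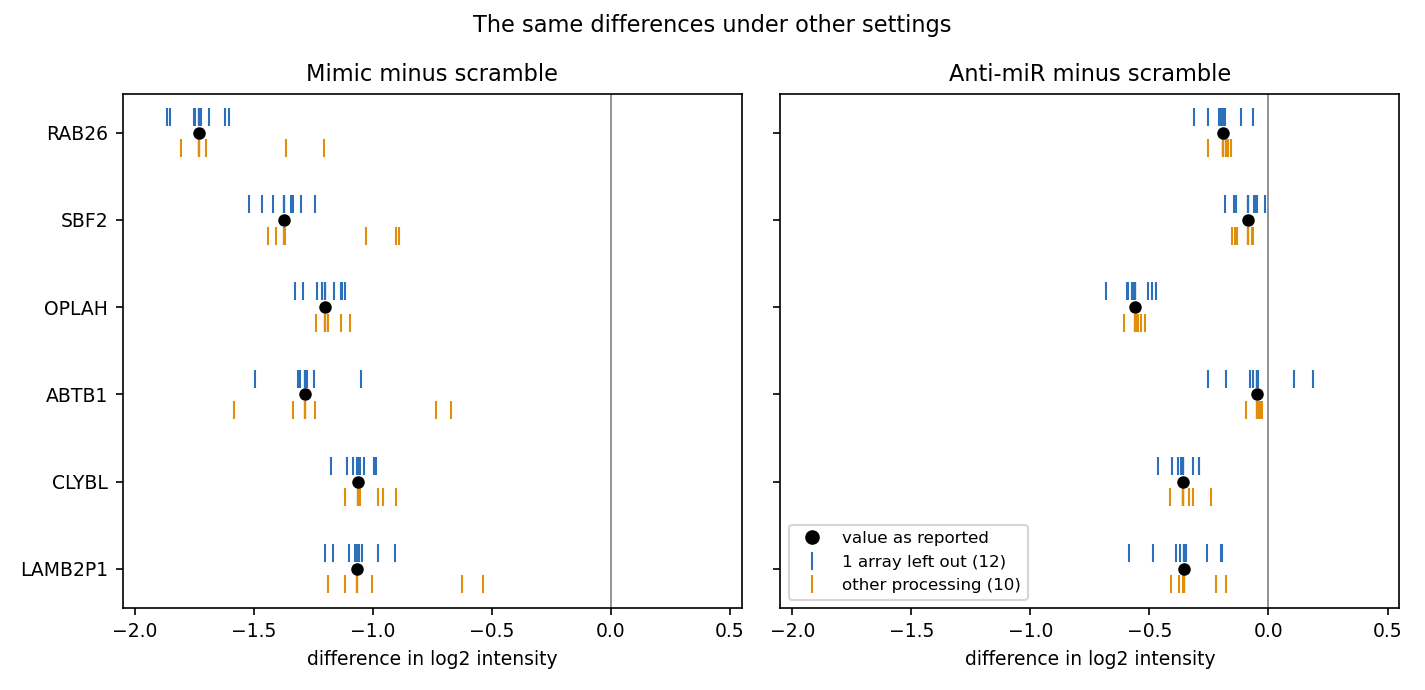
Differences in log2 intensity of the 6 genes as reported (black points), with 1 of the 12 arrays left out (blue ticks) and under 10 other processing settings (orange ticks), for mimic minus scramble and anti-miR minus scramble. The values that lie furthest to the right for RAB26, ABTB1 and LAMB2P1 on the left are those with a normexp offset of 50 and without background correction, and ABTB1 is the gene whose anti-miR difference crosses 0.

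Genes related to the fallers by family or pathway moved in both directions. In the 6 lists 77 of 102 genes beside the fallers were tested, and 8 rose, 15 fell and 54 did not pass in mimic against scramble, or 29.9% changed where 16.2% of all genes did, 7.44% higher and 8.76% lower. Their median difference was -0.03. The lists were built around the fallers with earlier results of these data known. The larger share of changed genes is therefore a description and not a result about the families. The count of 23 was 12 without mimic array 3, mimic array 4 or scramble array 3, 13 without scramble array 2 and 15 without scramble array 1. Between anti-miR and scramble, limma called 0 of the 77, in the comparison where 22 genes were called in all.

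Among 14 measured relatives of RAB26 and other Rab proteins of secretory vesicles 2 rose, 3 fell and 9 did not pass (median -0.02). RAB8A, which drives exocytic transport, rose by 0.44 ± 0.09 (limma's adjusted p = 0.00773). RAB15 rose by 0.47 ± 0.12 and RAB13, RAB10 and RAB3C fell by 0.37, 0.37 and 0.38, with adjusted p-values of 0.0164, 0.035, 0.0286 and 0.0488. Of these, the RAB15 call was lost without mimic array 4 or scramble array 3, that of RAB10 without mimic array 1 or 4 or scramble array 1 or 2 or under median scaling, that of RAB13 in all leave-outs of mimic and scramble arrays but those of mimic 1 and scramble 1, and that of RAB3C in 14 of 22 alternatives, without any 1 scramble array among them. RAB37, a close relative of RAB26, read -0.34 (adjusted p = 0.187).

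In the myotubularin family, lipid phosphatases of endosomes and their inactive partners, 12 relatives of SBF2 gave readings, of which 3 fell, 0 rose and 9 missed the threshold (median -0.13). MTMR11 fell by 0.88 ± 0.16 (limma's adjusted p = 0.00429), and MTMR9, an inactive member that binds active ones, by 0.65 ± 0.11 (adjusted p = 0.00333). MTMR4 fell by 0.29 ± 0.08 (adjusted p = 0.0254), a call that was lost without mimic array 1, 3 or 4 or scramble array 2 or 3. SBF1, the closest relative, read 0.04 and MTMR2, the phosphatase that pairs with SBF2, 0.13, neither past the threshold.

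In the glutathione list 3 of 11 measured genes rose, 0 fell and 8 were not past the threshold (median 0.19). GCLM, the modifier subunit of the enzyme that starts glutathione synthesis, rose by 0.76 ± 0.13 (limma's adjusted p = 0.0026), and its second probe read 0.31. CHAC2, which degrades glutathione, rose by 0.61 ± 0.18 (adjusted p = 0.0303) and the dipeptidase gene CNDP2 by 0.31 ± 0.09 (adjusted p = 0.028). The CHAC2 call was lost without mimic array 2, 3 or 4, without scramble array 1, 2 or 3, or with no filter on dim probes. The CNDP2 call was lost without mimic array 3 or 4, without scramble array 2 or 3, under median scaling, or in a fit of only the 2 groups. GGCT, which makes the oxoproline that OPLAH uses, read 0.19 (adjusted p = 0.324).

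Of 14 measured BTB-domain relatives of ABTB1 and cullin ligase genes 1 rose, 2 fell and 11 did not pass (median -0.002). BTBD3 fell by 0.54 ± 0.10 (limma's adjusted p = 0.00513), with a second probe at -0.42. RHOBTB3 fell by 0.40 ± 0.11 (adjusted p = 0.0237) and BTBD6 rose by 0.42 ± 0.12 (adjusted p = 0.0313). RHOBTB3 was not called without mimic array 3 or 4 or scramble array 1, 2 or 3, and BTBD6 without mimic array 1, 3 or 4, without any 1 scramble array, or under median scaling. ABTB2, a relative with the same kinds of domain, read 0.19 (adjusted p = 0.404).

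Of 17 measured genes of vitamin B12 handling and short acyl-CoA metabolism in mitochondria 1 rose, 4 fell and 12 did not pass (median -0.19). LMBRD1, which carries the vitamin out of lysosomes, fell by 0.37 ± 0.09 (limma's adjusted p = 0.0112), the succinyl-CoA ligase gene SUCLG2 by 0.39 ± 0.10 (adjusted p = 0.0209) and MCEE, the methylmalonyl-CoA epimerase gene, by 0.36 ± 0.11 (adjusted p = 0.0326). MTRR, the reductase that keeps methionine synthase active, rose by 0.49 ± 0.14 (adjusted p = 0.0282), with a second probe at 0.40. SUCLG2 was not called without mimic array 3 or 4 or scramble array 1, MTRR without mimic array 3 or 4 or scramble array 2 or 3, and MCEE without mimic array 1, 3 or 4 or scramble array 1, 2 or 3. Median scaling ended the calls of MTRR and MCEE. MMUT, the B12-dependent mutase, read -0.19 (adjusted p = 0.185).

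The laminin list had 9 of 21 genes with readings, of which 3 fell, 1 rose and 5 missed the threshold (median -0.24). Besides LAMB2, LAMA5 fell by 0.44 ± 0.11 (limma's adjusted p = 0.0163) and LAMB1 by 0.41 ± 0.09 (adjusted p = 0.00951), with a second LAMB1 probe at -0.38, while LAMB3 rose by 0.59 ± 0.14 (adjusted p = 0.0116) on a probe detected on 6 of 12 arrays. The LAMA5 call was lost without scramble array 1.

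**Figure D4:**
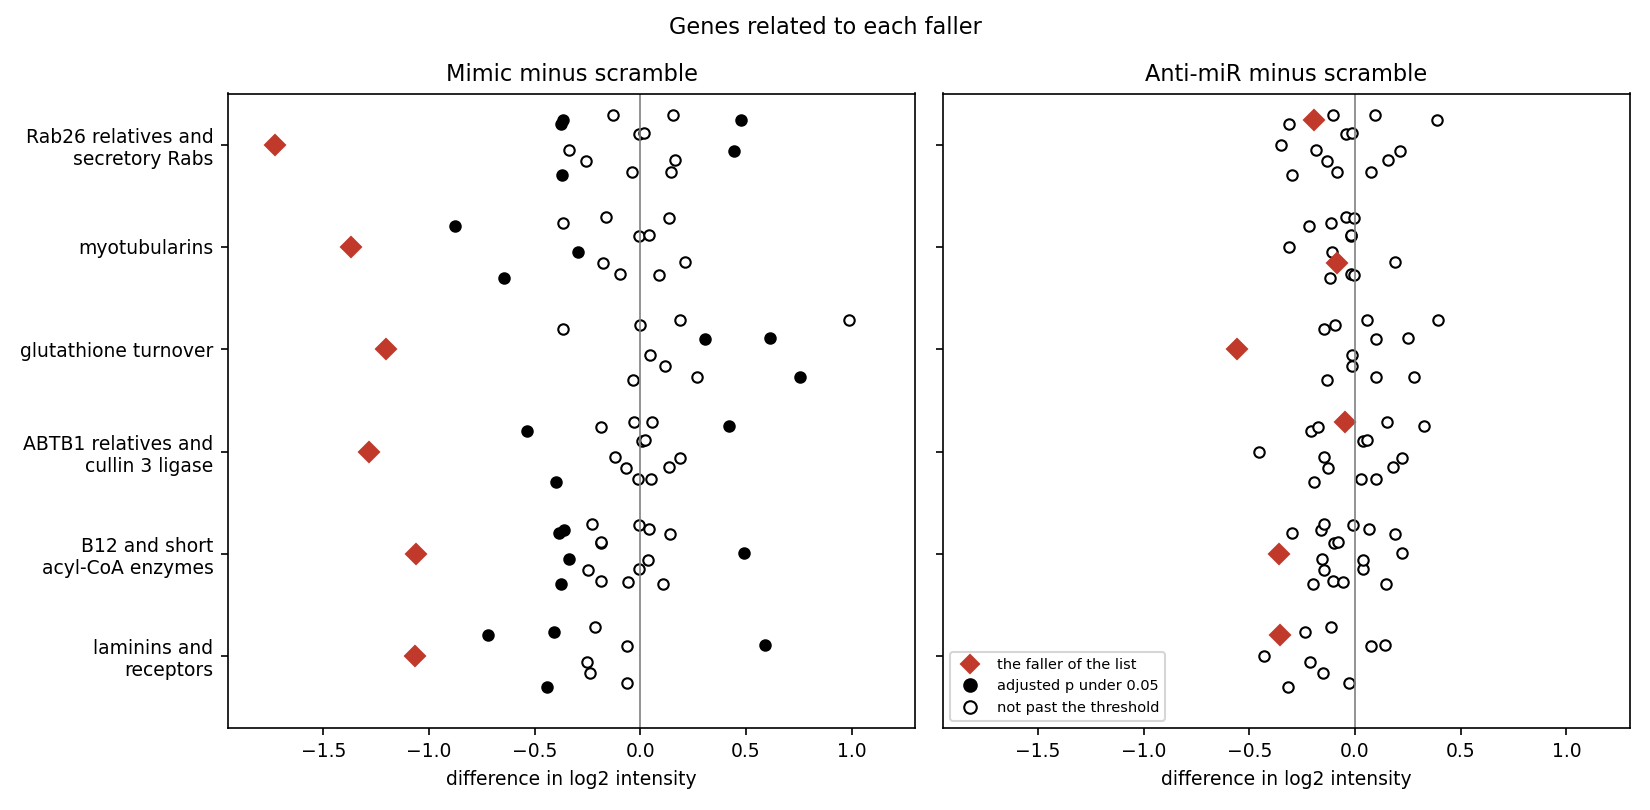
Difference in log2 intensity of each measured gene in the 6 related lists, mimic minus scramble on the left and anti-miR minus scramble on the right; red diamonds are the fallers, which chose the lists, filled circles passed limma's adjusted p of 0.05 and open circles did not. The other genes of each list lie on both sides of 0 on the left, where 8 filled circles are above 0 and 15 below, and on the right 0 circles are filled.

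The genes with the most similar profile were named by Pearson's r of log2 level over the 12 arrays, as a description over 3 groups that share their arrays between genes. For RAB26 they were SBF2 (r = 0.974) and AKAP11 (0.973), and for SBF2 they were RAB26 and RAB5A (0.965). For OPLAH they were ST3GAL5 and MIF4GD (0.979 each), for ABTB1 SEL1L3 (0.981) and PDCD4 (0.975), for CLYBL LETMD1 (0.979) and PHYH (0.978), and for LAMB2P1 PCCA (0.971) and DHDH (0.958). Apart from RAB26 and SBF2, these genes had smaller falls under the mimic than the faller they resembled, between -0.66 for DHDH and -0.34 for PCCA.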

How the data were processed

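Total RNA of 12 TC71 samples was hybridized as biotin-labelled cRNA to Illumina BeadChips, per the labels' protocols. Per the file headers, the raw table deposited by the authors holds the mean signal intensity of 47322 probes on a linear scale, and a detection p-value per probe and array. A second deposited table holds intensity values of the same probes with the median at 12 on every array and 159270 values below 0; how the authors normalized them is not given in the sources used here. All columns were matched to samples through the codes in the labels (0 unmatched).

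Raw intensities were corrected with normexp, background estimated from detection p-values, offset 16, then quantile normalized and put on the log2 scale, with limma 3.58.1 in R 4.3.3. Probes with detection p under 0.05 on at least 4 of 12 arrays were kept (20768). GEO's platform table named 1 gene for 30113 probes, several for 8 and none used here for 17201; symbols were updated through Entrez identifiers for 30074. The brightest kept probe stood for each of 11835 genes. limma was fitted with 1 mean per group over all 12 arrays, with Benjamini-Hochberg adjustment over all genes and a threshold of 0.05. In simulated data it called 57 of 100 genes changed by -0.5 log2 units and 84 of 100 changed by -1. Of 149 calls in all, 8 were false. The simulated noise was normal and independent between genes, so it could not test the p-values against effects that genes of an array share. The 6 genes, the related lists and the rule for named genes (members, the rest of the top 10 falls and the next, up to 3 called genes per list and direction, the 2 genes with the highest r per member) were chosen with earlier results of these data known; the measured neighbours and the closest or partner relatives that did not pass were added after the values were seen. The fit did not pair samples by replicate number, and the labels do not say whether the numbers mark pairs. The precision is limited by 4 arrays per group.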

Additional observations from a re-analysis of the deposited data

Results flagged for a closer look

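Among 33 sets of 4 arrays (each probe of the 6 genes and of LAMB2 in each group), 3 held an array that lay far from the other 3, where chance gives about 1 in 20. The second CLYBL probe read 8.84 log2 units on scramble array 1, against 8.52 to 8.57 on the other scramble arrays. The brighter SBF2 probe read 7.14 on scramble array 4, against 7.50 to 7.54 on the others, and the dimmer SBF2 probe read 5.14 on scramble array 3, against 5.47 to 5.50. All 3 were scramble arrays, a different one each time.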

How the results depend on the processing

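Over 22 alternatives, 12 of which left out 1 array, the differences between mimic and scramble of the 6 genes kept their sign, on the arrays that chose the genes. Genes called in mimic against scramble numbered 1108 to 2093 with 1 array left out, and in mimic against anti-miR 892 to 1858. In anti-miR against scramble they numbered 0 to 32 with 1 array left out, 0 under median scaling and in a fit of only the 2 groups, 36 without background correction, 10 without a filter on dim probes, 13 with the deposited normalized values, 99 with array weights and 2 with a replicate block. Called genes of the related lists numbered 12 to 23 with 1 array left out in mimic against scramble, and in anti-miR against scramble 2 without background correction and 1 with array weights, against 0. With the replicate number as a block 1801 genes were called in mimic against scramble, and the calls of RAB13 and RAB3C were lost. Same-numbered arrays of different groups deviated together at r = -0.22 to 0.23, and 2 of 12 arrays correlated best with their own number. Same-numbered mimic and anti-miR arrays had r of 0.078, 0.135, 0.227 and 0.039, each above 0. The highest r between groups, 0.31, joined mimic array 3 and scramble array 4. Whether the samples were paired in some other order was not tested. With 1 array left out the uncalled anti-miR difference of ABTB1 lay between -0.255 and 0.188 and that of LAMB2 between -0.0954 and 0.0267. They were above 0 for ABTB1 without anti-miR array 3 (0.106) and scramble array 1 (0.188), and for LAMB2 at 0.0267 without anti-miR array 3, 0.000641 without anti-miR array 4 and 0.0172 without scramble array 1, and the cause was not tested. The array values of ABTB1 and LAMB2P1 near background limit the size of their falls.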
